A study of Mus musculus with 18 samples.

Results

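The genes described here are the dual-specificity phosphatases Dusp1, Dusp2, Dusp4, Dusp5, Dusp6, Dusp10 and Dusp16 and the kinase gene Mapkapk2, chosen by their symbols, and they are 8 of the 54446 genes in the table. All 8 were found. They were followed in 18 libraries of mouse eosinophils, in 6 groups of 3 libraries. Eosinophils labelled as strain C57BL/6 were, per the study's methods, taken from the peritoneal cavity of Il5Tg mice, whose Il5 transgene raises eosinophil numbers. In all 6 groups, controls included, they were kept for 18 h with apoptotic cells (ACs), which were thymocytes killed with dexamethasone, at 5 per eosinophil. Siglec-F beads were then used to purify the eosinophils again, and CEL-Seq2, which reads the 3' ends of transcripts, gave the libraries. The Type 1 experiment had the groups ACs, E. coli + ACs, IFN-γ + ACs and IFN-γ + E. coli + ACs, the last with IFN-γ given before the bacteria. The IL-4 experiment had the groups ACs and IL-4 + ACs. The labels do not name the experiments. Which ACs libraries belong to which experiment was inferred from the spelling of the sample descriptions. Each stimulus was compared with the ACs group of its own experiment. Eosinophils kept without ACs are not analysed here. The study describes its replicates as biological and, for one comparison of eosinophils with and without ACs, as cells of a different mouse each. The labels do not tie the 3 libraries of a group to animals, and the p-values measure the spread between these libraries.

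Mitogen-activated protein kinases (MAPKs) such as ERK, JNK and p38 carry signals from cytokine and microbial receptors to the nucleus, each switched on when an upstream kinase phosphorylates a threonine and a tyrosine. The dual-specificity phosphatases remove both phosphates and switch the kinase off, and many of their genes are themselves induced by MAPK signalling, which makes them feedback inhibitors. DUSP1, DUSP2, DUSP4 and DUSP5 act in the nucleus, DUSP6 acts on ERK in the cytoplasm, and DUSP10 and DUSP16 act mainly on JNK and p38. MAPKAPK2 (MK2) is a kinase switched on by p38, and it controls the stability and translation of cytokine mRNAs such as that of TNF.

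The stretches before the starts of 3 members are shown as examples. Dusp1 was lower with E. coli, Dusp5 was higher with E. coli, and Dusp6 was higher with both stimuli together. Dusp2, Dusp16 and Mapkapk2 were also higher with E. coli, and their stretches are not shown. The stretches shown come from RefSeq on GRCm38.p6 and read 5' to 3' on the strand of the gene. Each lies before the RefSeq start and leaves out bases that GENCODE M21 annotates as exon. The stretch of Dusp1 lies inside the longer M21 model of that gene, which starts further upstream. In Dusp1 (chr17:26508520-26508722, minus strand) the capitals mark a cAMP response element, TGACGTCA. In Dusp5 (chr19:53528895-53529108, plus strand) they mark a pair of serum response (CArG) elements that stand end to end. In Dusp6 (chr10:99262981-99263230, plus strand) none of the motifs searched was found, and nothing is in capitals.
Dusp1: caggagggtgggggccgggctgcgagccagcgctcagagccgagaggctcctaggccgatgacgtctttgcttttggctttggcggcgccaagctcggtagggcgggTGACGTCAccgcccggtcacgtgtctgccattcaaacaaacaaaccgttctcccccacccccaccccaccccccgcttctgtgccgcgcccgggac
Dusp5: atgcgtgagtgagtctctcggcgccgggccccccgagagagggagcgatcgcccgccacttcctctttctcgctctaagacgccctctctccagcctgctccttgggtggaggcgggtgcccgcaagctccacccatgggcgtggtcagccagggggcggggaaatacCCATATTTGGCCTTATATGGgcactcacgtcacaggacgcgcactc
Dusp6: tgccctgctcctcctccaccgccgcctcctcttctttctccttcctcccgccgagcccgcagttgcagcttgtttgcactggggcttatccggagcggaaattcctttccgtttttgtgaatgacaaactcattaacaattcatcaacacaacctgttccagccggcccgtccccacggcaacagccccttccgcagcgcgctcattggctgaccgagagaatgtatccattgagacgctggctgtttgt
The search covered 250 bases before the RefSeq start on both strands, for 7 of the 8 members, Dusp4 having no entry. The full cAMP response element, at −143 in Dusp1, occurs in 1.55% of the 32851 promoters, and a CArG element occurs in 1.47%. Neither was found in Dusp2, Dusp16 or Mapkapk2, which were also higher with E. coli. The shorter core TGACG, which lies within the full cAMP response element, occurs in 17.8% of promoters and was found in Dusp1, Dusp5 and Dusp16. The GC box GGGCGG, in 32.7% of promoters, was found in Dusp1, Dusp2, Dusp5, Dusp10 and Dusp16. No member promoter held an AP-1 site (TGANTCA), a GAS site (TTCNNNGAA), a STAT6-type site (TTCNNNNGAA), an NF-κB site or an ETS core (CCGGAAG), which occur in 6.75%, 7.02%, 5.85%, 3.90% and 6.91% of promoters. Such matches describe letters only and are not measured binding sites.

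The Type 1 libraries held 2216917 to 5078760 reads on genes, and those of the IL-4 experiment 779421 to 7782072. Replicate 3 of both IL-4 experiment groups was shallow, with 849705 reads for IL-4 + ACs and 779421 for ACs, so that 1 read there stands for a normalized count of 5.14 and 5.36. All 9 eosinophil markers were detected in every group, although Epx, which encodes eosinophil peroxidase, had a median of only 2.17. Their summed normalized counts were 16332 to 17750 with ACs in the Type 1 experiment, 17546 to 18798 with E. coli, 14440 to 17093 with both, and lower with IFN-γ at 10002 to 11251, where 4 of 7 tested markers were called lower. In the IL-4 experiment they were 21178 to 23791 with ACs and 23952 to 26577 with IL-4. The 10 macrophage markers were also detected in all groups. Their sum was 13568 to 17130 with ACs in the Type 1 experiment, 6748 to 8137 with E. coli, 20835 to 29183 with IFN-γ and 8437 to 8500 with both. In the IL-4 experiment it was 19304 to 29096 with ACs and 15869 to 26054 with IL-4. The sum of the 6 B cell markers was 902 to 1043 with ACs in the Type 1 experiment and 97.6 to 317 with the 3 stimuli, and with ACs and IL-4 in the other experiment it was 406 to 466 and 349 to 571. The sum of the 9 neutrophil markers was 536 to 607 with ACs, 517 to 678 with E. coli, 367 to 394 with IFN-γ and 699.9 to 841 with both, and with IL-4 it was 123 to 128 against 359 to 477 with ACs. Mpo and Elane were at 0 in the 3 stimulated Type 1 groups, and Ltf also with both. The sum of the 6 mast cell markers was 5.64 to 20.3 with ACs, 21.1 to 38.4 with E. coli, 26.7 to 67.6 with IFN-γ and 35.6 to 63.5 with both, and with IL-4 it was 10.3 to 14.2 against 25.7 to 29.3 with ACs. The neutrophil sum with both stimuli, and the mast cell sum with each of the 3 stimuli, thus lay above the ACs range, and both sums lay below it with IL-4. With IFN-γ the neutrophil sum lay below the ACs range, although 3 of 4 tested neutrophil markers were called higher and 1 lower. Of the macrophage markers, 3 were called higher and 6 lower with both stimuli. The sums thus do not stand for every marker in them. The part of these markers in the members' changes was not tested. In such bulk samples a smaller share of a cell type and less RNA per cell cannot be told apart.

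A gene was called changed when limma's test gave a Benjamini-Hochberg adjusted p under 0.05 over all genes tested and a change of at least 1.5-fold on the log2(normalized count + 1) scale. Genes entered the test from a mean of 10 normalized counts upward, which 6 of the 8 members passed in each fit, all but Dusp4 and Dusp10. With E. coli, 4 of these 6 members were called higher and 1 lower, beside 5.05% and 5.25% of the 10166 genes tested. With IFN-γ, 2 members were called higher and 0 lower, where 11.4% and 9.96% of all genes were. The combination of IFN-γ and E. coli gave 4 higher and 1 lower, beside 14.7% and 17.2% of all genes. The median log2 fold change of the 6 members was 1.09 with E. coli, 0.21 with IFN-γ and 0.97 with both, where the medians of all genes were −0.0040, -2.1e-06 and −0.05. With IL-4 no member was called, where 0.74% of 10669 genes were called higher and 0.347% lower, and the members' median was −0.13 beside −0.0084 for all genes.

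**Figure D1:**
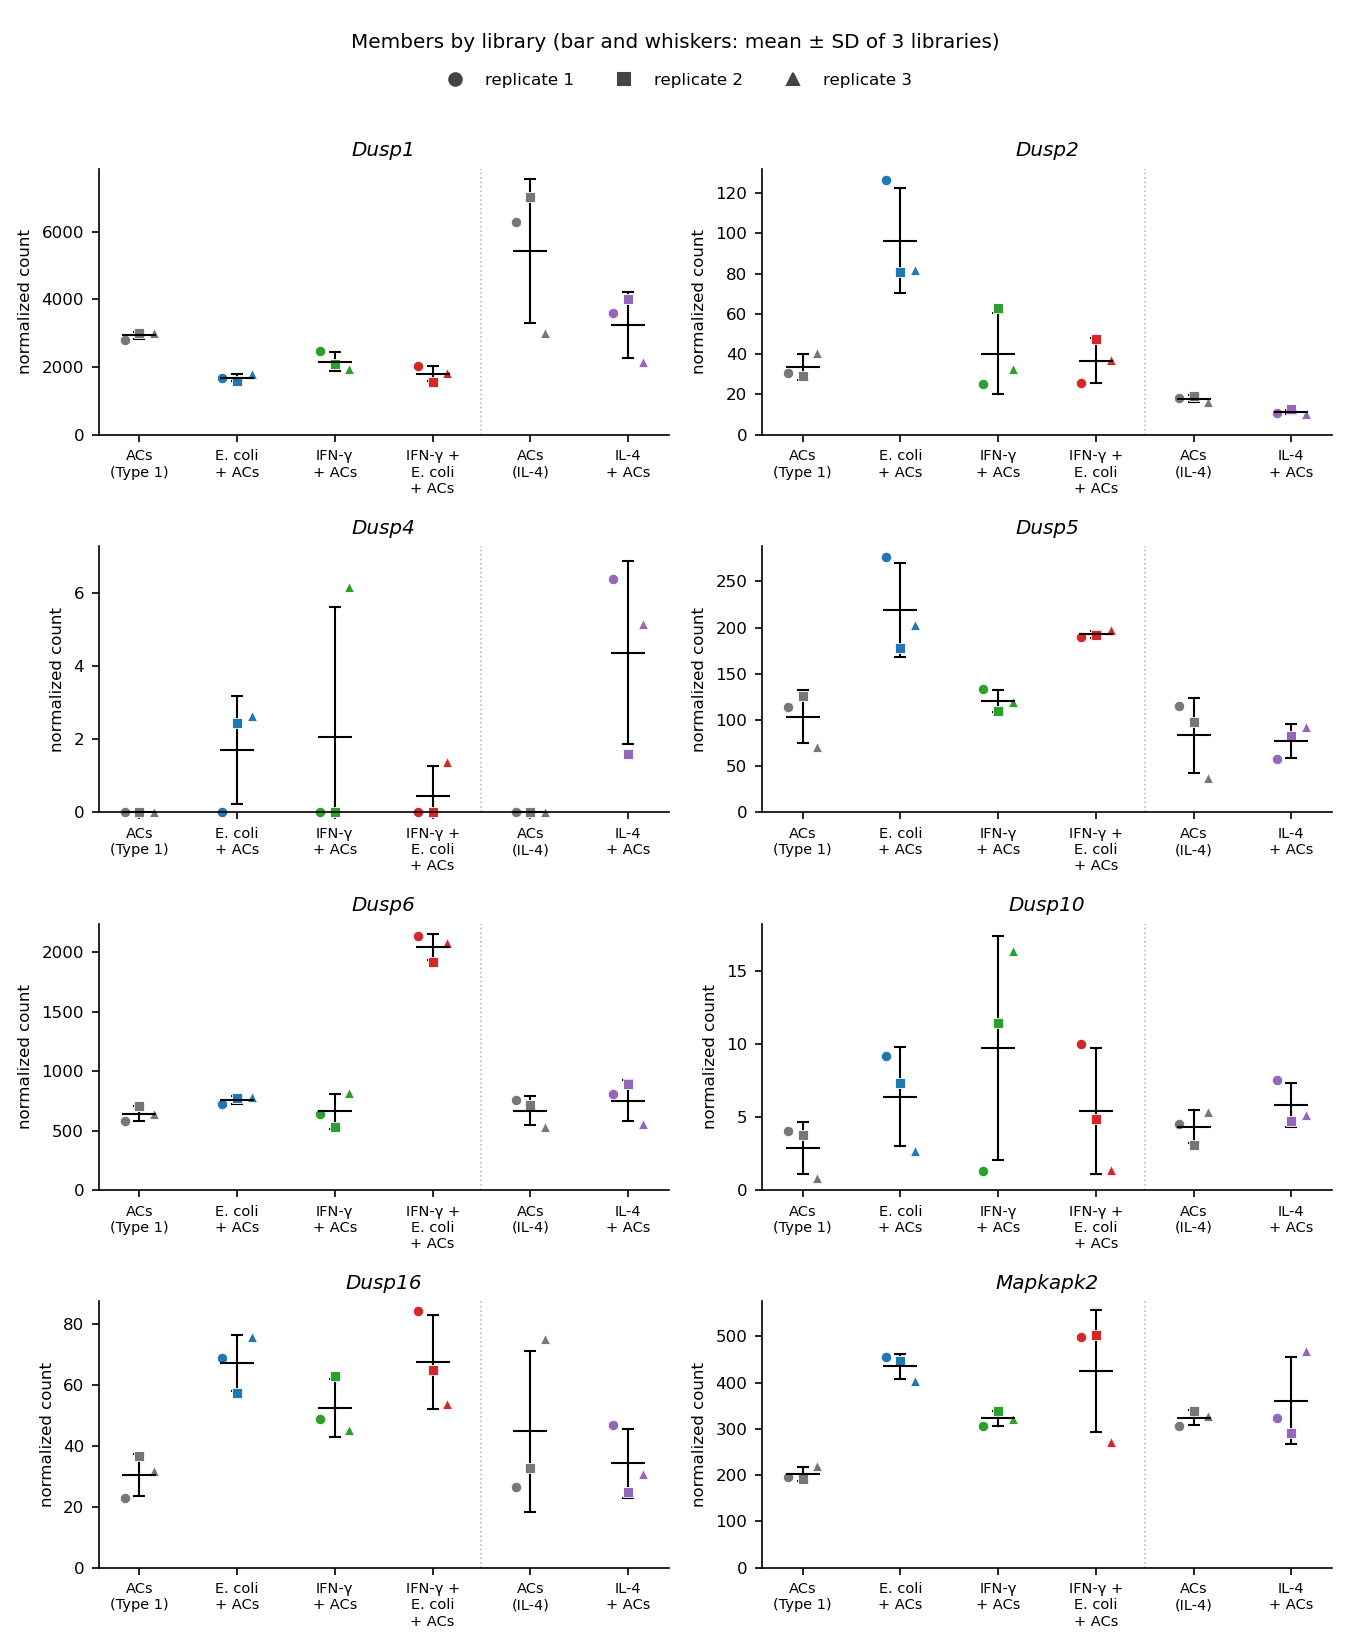
Normalized count (linear axis from 0) of each of the 8 genes in each of the 18 libraries, by group, with 1 symbol per replicate and the mean ± SD of 3 libraries as a bar with whiskers (parts below 0 are not drawn). The dotted line separates the Type 1 from the IL-4 experiment. The 3 IFN-γ + E. coli + ACs libraries stand apart for Dusp6 at 1918 to 2135, and Dusp4 and Dusp10 stay near 0.

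Dusp1, on chromosome 17 from 26505590 to 26562128 in GENCODE M21 (26505591 to 26508472 in RefSeq), encodes the best known of the nuclear phosphatases, MKP-1, which acts on p38 and JNK. Its normalized counts with ACs in the Type 1 experiment were 2806, 2995 and 3005 in replicates 1, 2 and 3. With E. coli they were 1676, 1594 and 1794. All E. coli libraries lay below all ACs libraries. The log2 fold change was −0.80 (SE 0.12), a call in limma with an adjusted p of 8.89e-05. With both stimuli Dusp1 measured 2023, 1568 and 1810, again below all ACs values, and the log2 fold change of −0.71 (SE 0.12) was called with an adjusted p of 7.93e-05 by limma. With IFN-γ alone the values were 2460.0, 2084 and 1937. These also lay below the ACs range, but the change of −0.45 on the log2 scale was short of 1.5-fold, although its limma adjusted p was 0.00722. Dusp1 was thus the one tested member whose values fell with E. coli and with both stimuli, while the calls of the other members were to higher values. Its long M21 gene model overlaps Ergic1 on the other strand, and since the strand setting of the counting is not given, reads of the 2 genes may be mixed there.

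Dusp2, on chromosome 2 from 127336159 to 127338376, encodes PAC-1, a phosphatase of the nucleus first known from activated lymphocytes. With ACs its normalized counts were 30.9, 29.1 and 40.8. With E. coli they were 126, 80.9 and 81.8, all above the ACs range. The rise was 1.48 on the log2 scale (SE 0.33), with an adjusted p of 0.00452 by limma. With IFN-γ the values were 25.1, 63.0 and 32.8, and with both stimuli 25.7, 47.6 and 37.2. Both of these ranges overlapped the ACs range. The log2 fold changes were 0.16 (95% interval −0.52 to 0.85) and 0.10 (−0.59 to 0.79), and neither was called. Set directly against E. coli alone, Dusp2 was lower by −1.37 (SE 0.33, limma adjusted p 0.00475) when IFN-γ was added. These counts rested on 16 to 151 reads per library.

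The sum of 12 markers of thymocytes, the cell type of the ACs, was highest in the same group as Dusp2. It was 129 to 180 with E. coli, 91.1 to 136 with ACs, 55.4 to 111 with IFN-γ and 45.5 to 115 with both. Of the 12 markers, Cd3d was above 0 in all 18 libraries, Lck and Cd8b1 in 17, Cd4 in 16, and Rag1, Rag2 and Dntt in 5 each. Of these 12, 3 were tested, and none was called with E. coli. Trbc2, a T cell receptor gene outside that list, was at 266, 196 and 259 with E. coli and at 118, 101 and 142 with ACs. Every E. coli library thus lay above every ACs library. Trbc2 was at 81.8, 132 and 131 with IFN-γ and at 51.3, 121 and 66.2 with both. Its profile over the Type 1 libraries was among the 3 closest to that of Dusp2, so its rise with E. coli is not separate support. The part of thymocyte RNA in the Dusp2 result was not tested.

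**Figure D2:**
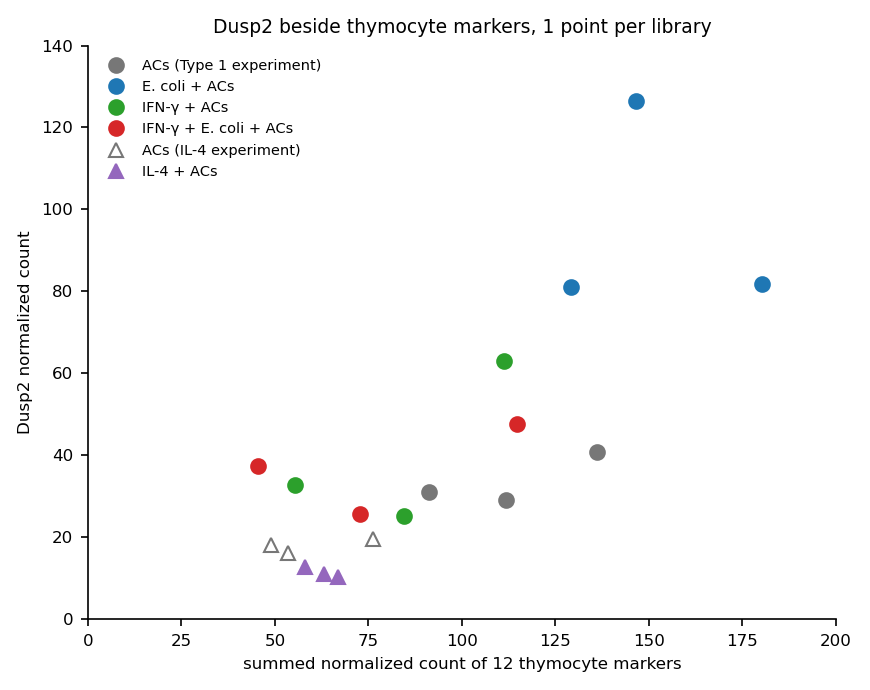
Dusp2 normalized count (vertical axis) against the summed normalized count of 12 thymocyte markers (horizontal axis), 1 point per library, coloured by group, with circles for the Type 1 and triangles for the IL-4 experiment. The 3 E. coli + ACs libraries are at 80.9 to 126 for Dusp2 and at 129 to 180 for the markers, and the 3 ACs libraries of that experiment are at 29.1 to 40.8 and at 91.1 to 136.

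Dusp5, on chromosome 19 from 53529109 to 53542431, encodes a nuclear phosphatase selective for ERK. With ACs its normalized counts were 114, 126 and 71.0. With E. coli they were 276, 178 and 202. With both stimuli they were 190, 192 and 197, a narrow range that lay above the ACs values like that of E. coli. The log2 fold changes were 1.09 (SE 0.21, adjusted p 0.00125) with E. coli and 0.93 (SE 0.21, adjusted p 0.00148) with both, each called by limma. With IFN-γ alone Dusp5 measured 133, 110 and 119, which overlapped the ACs range, and the log2 fold change of 0.26 was not called. Against E. coli, IFN-γ alone was lower by −0.83 on the log2 scale (SE 0.21, limma adjusted p 0.00663), a call that was lost without replicate 1 of E. coli + ACs, with an adjusted p of 0.0559. Adding E. coli to IFN-γ raised Dusp5 by 0.68 (SE 0.21, limma adjusted p 0.0273). That rise was not called without replicate 2 (adjusted p 0.0960) or 3 (0.0523) of IFN-γ + ACs, or without replicate 1 (0.0600) or 3 (0.0573) of IFN-γ + E. coli + ACs.

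Dusp4, on chromosome 8 from 34807297 to 34819894, encodes MKP-2, a nuclear phosphatase close to DUSP1, and was barely detected. No read was counted on it in the 6 ACs libraries of the 2 experiments. The IL-4 + ACs libraries had 11, 3 and 1 reads, normalized counts of 6.37, 1.58 and 5.14. With E. coli 0, 3 and 3 reads were counted, with IFN-γ 0, 0 and 3, and with both 0, 0 and 1. IL-4 + ACs was the only group in which every library held a read of Dusp4, and with so few reads no fold or test is given. A count of 0 is compatible with up to 3 reads, which is a normalized count of 16.1 in the shallow ACs library.

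Dusp6, on chromosome 10 from 99263231 to 99267489, encodes MKP-3, the cytoplasmic phosphatase of ERK, whose gene is a common readout of ERK activity. With ACs its normalized counts were 581, 703 and 639. With E. coli they were 719, 772 and 786, and with IFN-γ 641, 528 and 817. With both stimuli they were 2135, 1918 and 2078. Neither stimulus alone came near the values seen with both. The log2 fold change with both was 1.67 (SE 0.14), that is 3.19-fold, with an adjusted p of 1.55e-08 by limma. With E. coli it was 0.25 (95% interval −0.04 to 0.53), not called with an adjusted p of 0.278 although the E. coli range lay just above the ACs range, and with IFN-γ it was 0.03 (−0.26 to 0.32). The combination also exceeded IFN-γ alone, by 1.65 (limma adjusted p 2.41e-07), and E. coli alone, by 1.43 (limma adjusted p 3.51e-07). In each of the 12 leave-one-out fits and the 10 other alternatives for the comparison with ACs the rise of Dusp6 was called, with log2 fold changes from 1.53 to 1.74. These values rest on 398 to 1570 reads per library.

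Dusp10, on chromosome 1 from 184013302 to 184075636, and Dusp16, on chromosome 6 from 134715468 to 134792625, encode MKP-5 and MKP-7, the phosphatases of JNK and p38. Dusp10 was at 0.82 to 16.4 in the Type 1 libraries and 3.11 to 7.53 in the IL-4 experiment, with 1 to 13 reads per library, and was not tested. Its ranges overlapped between each stimulus and its ACs group. An overlapping gene on the other strand, 1700056E22Rik, may share reads with it. The normalized counts of Dusp16 with ACs were 22.8, 36.6 and 31.8, and with E. coli 68.6, 57.2 and 75.6. With IFN-γ they were 48.8, 63.0 and 45.1, and with both 84.1, 64.7 and 53.8. The ranges of all 3 stimulated groups lay above that of ACs. Limma called each of the 3 rises, with log2 fold changes of 1.14 (SE 0.26, adjusted p 0.00531) for E. coli, 0.78 (SE 0.26, adjusted p 0.0310) for IFN-γ and 1.13 (SE 0.26, adjusted p 0.00182) for both. The call with IFN-γ was lost in 4 of the 12 leave-one-out fits. Its limma adjusted p was 0.146 and 0.0595 without replicates 1 and 3 of ACs, and 0.0502 and 0.122 without replicates 1 and 2 of IFN-γ + ACs. It was also lost over all genes with any value above 0 (0.0571), after rescaling to a common upper quartile (0.0537) and with all 18 libraries in the fit (0.11). No pair of the 3 stimulated groups differed by a call for Dusp16.

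Mapkapk2, on chromosome 1 from 131053700 to 131097826, encodes MK2 itself. Its normalized counts were 197, 191 and 219 with ACs and 455, 447 and 403 with E. coli. With IFN-γ they were 306, 339 and 322. With both they were 499, 503 and 272, so replicate 3 lay well below the other two. Every stimulated library of the Type 1 experiment was above every ACs library. Limma called the rise with E. coli (1.099, SE 0.18, adjusted p 0.000374), with IFN-γ (0.67, SE 0.18, adjusted p 0.0107) and with both (1.01, SE 0.18, adjusted p 0.000240). After rescaling to a common upper quartile the rise with IFN-γ was 0.58, short of 1.5-fold. Mapkapk2 did not differ by a call between any 2 stimulated groups. Without the low replicate 3, however, the combination exceeded IFN-γ alone by 0.64 with a limma adjusted p of 0.00260, a call. The gene overlaps Gm37084, a gene model of unsettled status, on the same strand.

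**Figure D3:**
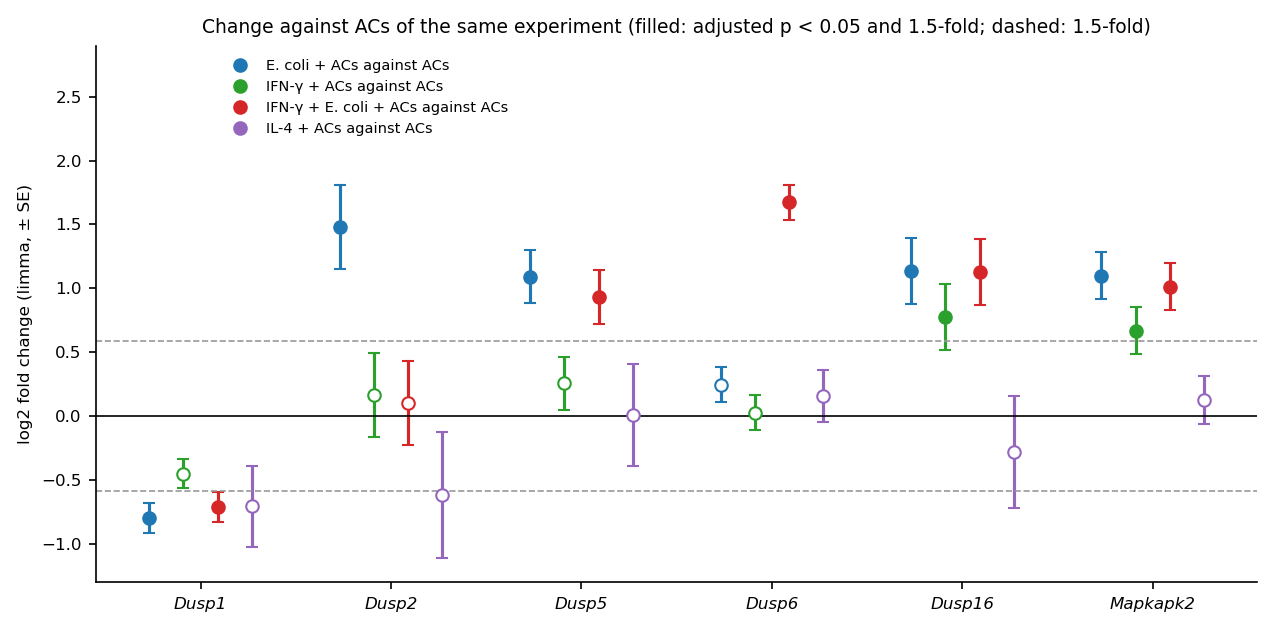
Log2 fold change ± SE (limma, on log2(normalized count + 1)) of the 6 tested members against the ACs group of the same experiment, with 1 colour per stimulus, filled symbols for calls and dashed lines at 1.5-fold. Dusp1 was called lower with E. coli and with both stimuli, Dusp6 was called with both stimuli at 1.67, and no IL-4 symbol is filled.

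Whether the effects of IFN-γ and E. coli add up on the log2 scale was tested by their interaction, which 2 of the 6 tested members passed, beside 7.44% of all 10166 genes. For Dusp6 the single effects summed to 0.27 and the combined effect was 1.67, so the interaction was 1.40 (SE 0.19, limma adjusted p 0.000162). It was called in all 12 leave-one-out fits and all 10 other alternatives. For Dusp2 the single effects summed to 1.64 and the combined effect was 0.10, an interaction of −1.54 (SE 0.46) that just passed, with a limma adjusted p of 0.0489. Of the 12 leave-one-out fits, those without replicate 1 or 3 of IFN-γ + ACs or replicate 2 of IFN-γ + E. coli + ACs kept that call, and without each of the other 9 libraries its adjusted p was 0.0584 to 0.148. Of the 10 other alternatives, 6 kept it, edgeR (adjusted p 0.0321) and DESeq2 (0.0139) on recovered reads among them. It was lost over all genes with any value above 0 (0.0931), with the replicate block (0.0529), after rescaling to a common upper quartile (0.0518) and with all 18 libraries in the fit (0.0700). For Dusp1, Dusp5, Dusp16 and Mapkapk2 the combined change was also nearer to 0 than the sum, but no interaction was called. The interaction of Dusp1 was 0.54 (limma adjusted p 0.0540). It was called without replicate 1 of IFN-γ + ACs (0.63, adjusted p 0.0299) and without replicate 2 of IFN-γ + E. coli + ACs (0.63, adjusted p 0.0161). That of Mapkapk2 was −0.76 (limma adjusted p 0.0829), and it was called without replicate 2 of IFN-γ + E. coli + ACs (−0.91, adjusted p 0.0312) and with array weights (−0.70, adjusted p 0.0492). The interactions of Dusp5 and Dusp16 were −0.41 (95% interval −1.03 to 0.20) and −0.78 (−1.55 to −0.02), with limma adjusted p-values of 0.441 and 0.209.

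**Figure D4:**
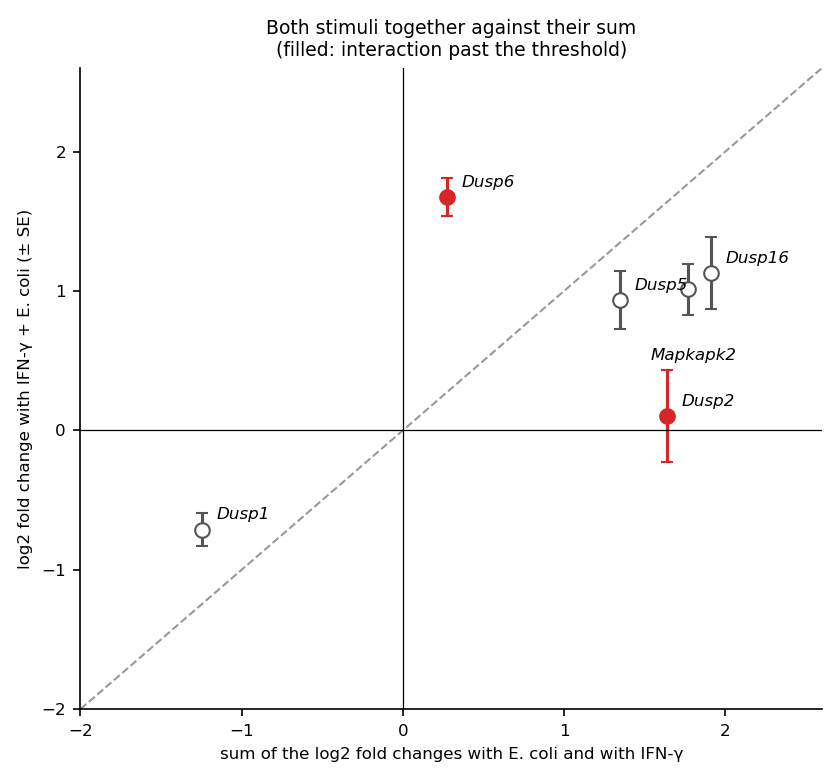
Log2 change under both stimuli (vertical axis, ± SE) against the sum of the log2 fold changes with each stimulus alone (horizontal axis) for the 6 tested members, with the dashed line where both are equal and filled symbols for called interactions. Dusp6 lies above the line at 1.67 against 0.27, and Dusp2 lies below it at 0.10 against 1.64.

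The stimulated groups of the Type 1 experiment were also set against each other. Between the combination and IFN-γ alone, 2 of the 6 tested members were called, Dusp5 and Dusp6, beside 14.6% of all genes. Between the combination and E. coli alone the 2 called were Dusp2 and Dusp6, beside 19.4%. Between IFN-γ and E. coli the 2 called were Dusp2 and Dusp5, both lower with IFN-γ, beside 16.6%. For Dusp2 that difference was −1.31 (SE 0.33, limma adjusted p 0.00682), and it was not called without replicate 1 of E. coli + ACs (adjusted p 0.0517). Dusp1 was higher with IFN-γ than with E. coli by 0.35 on the log2 scale (limma adjusted p 0.0393), short of 1.5-fold.

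In the IL-4 experiment no tested member was called. Dusp1 showed the largest difference. Its normalized counts were 3593, 3994 and 2133 with IL-4 and 6276, 7008 and 3008 with ACs, so that both groups were lowest in the shallow replicate 3, where 415 and 561 reads were counted. The ranges overlapped through those libraries. The log2 fold change was −0.70 (SE 0.32, 95% interval −1.41 to 0.01) with a limma adjusted p of 0.520. Without both shallow libraries, an alternative chosen after seeing the data, it was −0.81 with an adjusted p of 0.000645 in limma, and −0.79 with 0.000490 in edgeR's quasi-likelihood test, both calls. Array weights, which down-weight variable libraries, also gave a call at −0.75 (limma adjusted p 0.000972). With each of the 6 libraries left out in turn the adjusted p was 0.0946 to 0.752.

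Dusp2 was at 11.01, 12.6 and 10.3 with IL-4 and at 18.05, 19.5 and 16.1 with ACs, so all IL-4 values were below all ACs values. The values of replicate 3 rest on 2 and 3 reads, and the log2 fold change of −0.62 had a limma adjusted p of 0.725. Dusp5 measured 57.4, 82.2 and 92.5 with IL-4 and 115, 98.1 and 37.5 with ACs. Dusp6, the gene with the clearest response to the combination, was at 805, 888 and 555 with IL-4 and 753, 719 and 531 with ACs. Dusp16 was at 46.9, 24.8 and 30.8 against 26.3, 32.7 and 75.1, where the highest ACs value rests on 14 reads. Mapkapk2 was at 324, 291 and 468 against 306, 338 and 327. These 4 genes overlapped between the groups. Their log2 fold changes were 0.01 (95% interval −0.88 to 0.90) for Dusp5, 0.16 (−0.30 to 0.61) for Dusp6, −0.28 (−1.25 to 0.70) for Dusp16 and 0.13 (−0.30 to 0.55) for Mapkapk2. The intervals of Dusp5 and Dusp16 reach past 1.5-fold on both sides, and that of Dusp6 on the higher side. Changes of that size are thus not excluded for them. Without both shallow libraries the log2 fold change of Dusp5 was −0.62 (limma adjusted p 0.0955), with both remaining IL-4 values below both ACs values, and those of Dusp16 and Mapkapk2 turned to 0.21 (adjusted p 0.752) and −0.07 (0.796). None was called.

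The IL-4 effect was set directly against the effect of IFN-γ + E. coli, each relative to the ACs group of its own experiment, in 1 fit of all 18 libraries. There 3 of the 6 tested members were called, all lower with IL-4, beside 20.4% of 10414 genes called in either direction. For Dusp6 the difference was −1.52 (SE 0.24, limma adjusted p 0.000102), and it was called in every alternative run. For Dusp16 it was −1.41 (SE 0.48, limma adjusted p 0.0420), a call lost in 10 of 18 leave-one-out fits, with −0.96 and an adjusted p of 0.108 without the shallow ACs replicate 3. The call of Dusp16 was also lost in 8 of 10 other alternatives, among them edgeR (adjusted p 0.0659) and DESeq2 (0.0556) on recovered reads. For Mapkapk2 it was −0.88 (SE 0.28, limma adjusted p 0.0264), lost in 7 of 18 leave-one-out fits with adjusted p-values up to 0.0800. For Dusp5 it was −0.92 (limma adjusted p 0.146), and −1.55 (adjusted p 0.00172) without both shallow libraries. Of the 11 alternatives other than leave-one-out fits, 5 called Dusp5. Among these were edgeR (−1.29, adjusted p 0.00916) and DESeq2 (−1.25, adjusted p 0.00718) on recovered reads. Experiment and stimulus differ together in this contrast, so a difference between the experiments in how eosinophils respond cannot be told apart from one between the stimuli.

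The other genes of the MAPK pathway were taken as 69 genes in 7 lists, of which 52 were tested in the Type 1 experiment. With E. coli 9 were called higher and 4 lower (17.3% and 7.69%, beside 5.05% and 5.25% of all genes). With IFN-γ 7 and 5 were called (13.5% and 9.62%), which is near the 11.4% and 9.96% of all genes. With both, 16 and 7 were called (30.8% and 13.5%, beside 14.7% and 17.2%), so that the share called lower was below that of all genes. The median log2 fold change over these genes was 0.06, 0.03 and 0.32, beside −0.0040, -2.1e-06 and −0.05 for all genes tested. In the interaction 3 were called (5.77%, beside 7.44% of all genes), Map3k5 (1.09), Map3k6 (1.21) and Zfp36l2 (0.87).

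Among the kinases, Map2k1, which encodes the ERK kinase MEK1, and Mapk14, which encodes p38α, moved in opposite directions. Map2k1 was at 923 to 1048 with ACs, 1578 to 1736 with E. coli, 1888 to 2366 with IFN-γ and 3048 to 3846 with both, and its log2 fold changes were 0.73, 1.04 and 1.80. Mapk14 was at 893 to 1065, 471 to 525, 363 to 488 and 281 to 352 in the same order, with log2 fold changes of −0.95, −1.24 and −1.63. No stimulated library of either gene fell within its ACs range, and limma called all 6 changes. Mapk6, which encodes the atypical kinase ERK3, rose by 0.62, 0.84 and 1.59. Of the 13 tested MAP kinase kinase kinases, 1 was called higher and 2 lower with both stimuli, beside 14.7% and 17.2% of all genes. The 2 lower were Map3k6 with a log2 fold change of −1.36 and Map3k3 with one of −1.15 (SE 0.42). Map3k3 was at 181 to 889 with both stimuli and at 475 to 959 with ACs, so its ranges overlapped. The median log2 fold change of this list was 0.26.

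Of the 8 phosphatases outside the member list, 3 were tested, and none was called higher against ACs with any Type 1 stimulus. Dusp3, which encodes the small phosphatase VHR, was at 97.0 to 127 with ACs and at 44.0 to 48.6 with E. coli and 30.5 to 35.9 with both, with log2 fold changes of −1.26 and −1.77 called by limma. With IFN-γ alone it was at 101 to 134 and was not called. Dusp7, a cytoplasmic ERK phosphatase related to Dusp6, was called lower with both stimuli, at −0.98. Among the RAS-ERK feedback inhibitors, 4 of 5 tested genes rose with both stimuli, beside 14.7% of all genes called higher. These were Spred1 by 0.93, Spred2 by 0.93, Ier3 by 0.92 and Rasa2 by 0.83. With E. coli 2 of the 5 were called higher and with IFN-γ 1, beside 5.05% and 11.4% of all genes. SPRED proteins dampen signalling from RAS to ERK.

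The 10 substrates and cytokine mRNAs under MK2 were all tested, and with both stimuli 7 rose and 1 fell, beside 14.7% and 17.2% of all genes. Ptgs2, which encodes cyclooxygenase-2, was at 20.3 to 42.2 with ACs, 106 to 116 with E. coli, 168 to 324 with IFN-γ and 589 to 1036 with both. Its log2 fold changes were 1.93, 2.86 and 4.70. Il1b rose by 3.06 with E. coli and 3.52 with both, and Tnf by 2.24 and 2.37. With ACs, Il1b was at only 3.25 to 12.2 and Tnf at 7.32 to 11.3, so these folds rest on low counts there. Neither was called with IFN-γ alone. Hspb1, a small heat shock protein that MK2 phosphorylates, fell, with log2 fold changes of −1.09 with E. coli and −2.04 with both. In the IL-4 experiment 2 of 56 tested pathway genes were called (3.57%, beside 0.74% of all genes called higher), both higher: Il6 by 2.76 (SE 0.36, limma adjusted p 0.00567) and Ptgs2 by 1.495 (SE 0.24, limma adjusted p 0.0147). Il6 was at 202 to 396 with IL-4 and 27.2 to 64.3 with ACs.

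**Figure D5:**
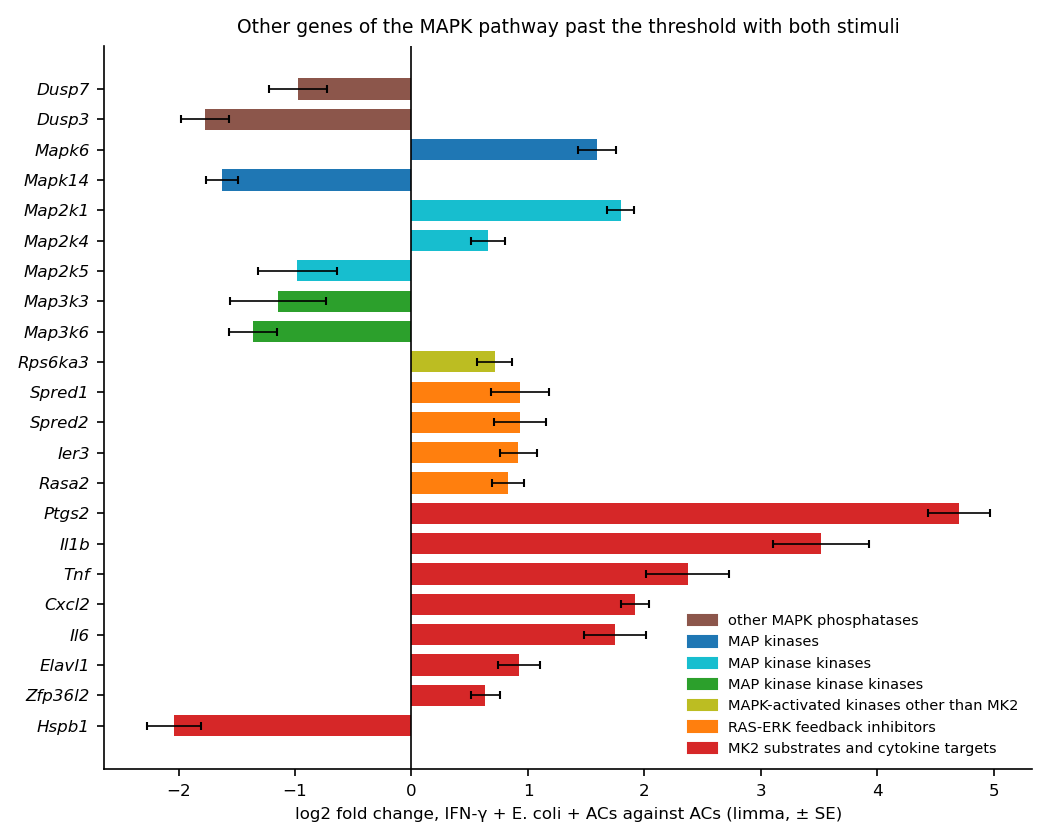
Log2 fold change ± SE (limma) of IFN-γ + E. coli + ACs against ACs for 22 of the 23 genes called among 52 tested pathway genes outside the member list, coloured by list. The bars of the 4 RAS-ERK feedback inhibitors point to higher values, those of the 2 phosphatases to lower values, and Ptgs2 has the longest bar at 4.70.

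Genes with profiles like those of the members were sought over the 12 Type 1 libraries by Pearson's r of log2(normalized count + 1), among 6746 genes with a mean of at least 50, and are given as a description for the 3 members whose group means ranged most. For Dusp6 the closest were Ripor2 (r = 0.97), Dapp1 (0.97) and Plekha2 (0.97). Ripor2 averaged 1033, 925, 899 and 2134 in the ACs, E. coli, IFN-γ and combined groups, a pattern with the same single high group as Dusp6. For Dusp2 the closest were Adprm (0.90), Trbc2 (0.85) and Cyren (0.85), and for Dusp16 Plaur (0.92) and Odc1 (0.91) were among the closest. All these correlations are over the same 12 libraries in 4 groups.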

How the data were processed

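RNA was measured by CEL-Seq2 in 18 libraries. The values that the authors deposited are a signal for each gene, its read count over the DESeq2 size factor of the library. Per the submitters' processing notes the tools were FastQC 0.11.5, Trim Galore, cutadapt 1.10, TopHat2 2.1.0, Bowtie2 2.2.6, HTSeq 0.6.1 and DESeq2 1.26.0 on GRCm38. The paper describes 2 pipelines and does not tie one to this table, and the use of molecular identifiers is not given in the sources used here, so precision from read numbers covers counting error only. At least 99.84% of the values in each library were whole multiples of 1 step within 0.05 reads, and whole reads were recovered from them. Depth was 779421 to 7782072 reads per library. Identifiers were matched without version, 54409 of them to a symbol, and all 18 columns were used.

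Fits used limma 3.58.1 under R 4.3.3, with lmFit and a trended eBayes, on log2(normalized count + 1) for genes with a mean of at least 10, the Type 1 stimuli and their interaction on 12 libraries, IL-4 on 6, and the contrast of both on 18. A call needed a Benjamini-Hochberg adjusted p under 0.05 and 1.5-fold. Alternatives were a pseudocount of 5, a minimum mean of 50, any value above 0, array weights, upper-quartile rescaling, the replicate number as a block, all 18 libraries, no fold threshold, edgeR 4.0.16 and DESeq2 1.42.0 on recovered reads, each library left out, and, added after seeing the data, the IL-4 experiment without its shallow libraries. The scripts were tested on simulated data. Members and lists were chosen with earlier results of these data known. All 8 members are named, and from each list at most the 4 largest calls per comparison. Python 3.11.15, numpy 2.4.6, pandas 2.3.3 and matplotlib 3.10.9 handled tables and figures. Values of some genes that these rules name are not reported here.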

Additional observations from a re-analysis of the deposited data

Results flagged for a closer look

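The effects of E. coli on 2 members differed by a limma interaction test according to whether IFN-γ was present. For Dusp6 the interaction was 1.40 on the log2 scale, with the combined libraries at 1918 to 2135 and all other Type 1 libraries at 528 to 817. For Dusp2 it was −1.54, with E. coli alone at 80.9 to 126 and all other Type 1 libraries at 25.1 to 63.0. The Dusp2 interaction just passed, with a limma adjusted p of 0.0489. Its call was lost in 9 of 12 leave-one-out fits and in 4 of 10 other alternatives. The thymocyte marker sum was also highest with E. coli alone, at 129 to 180, and its part was not tested.

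The effect of IL-4 differed from that of IFN-γ + E. coli, by the limma test of the difference itself, for 3 members. The difference was −1.52 for Dusp6, −1.41 for Dusp16 and −0.88 for Mapkapk2. The call of Mapkapk2 was lost in 7 of 18 leave-one-out fits and in 2 of 11 other alternatives. Experiment and stimulus differ together in this contrast and cannot be told apart. Every IFN-γ + E. coli library was above its ACs group for all 3 genes, and the IL-4 ranges overlapped their ACs group. For Dusp16 the ACs group of the IL-4 experiment held a value of 75.1 from 14 reads in its shallow library, beside 26.3 and 32.7. The call of Dusp16 was lost in edgeR (adjusted p 0.0659) and DESeq2 (0.0556) on recovered reads. Dusp5, not called in the main fit, was called in both (adjusted p 0.00916 in edgeR and 0.00718 in DESeq2).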

How the results depend on the processing

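Of 1202 member values recomputed under the alternatives, 57 lost their call and 16 gained one, no called value changed sign, and 48 values called in neither fit did. With E. coli and with both stimuli against ACs, 5 members were called under every alternative. Under all genes with any value above 0, rescaling to the upper quartile and all 18 libraries in 1 fit, the members called with IFN-γ were 1, 0 and 1 in place of 2, and those in the interaction 1, 1 and 1 in place of 2. The first pair of these settings gave 1 and 1 in place of 3 for IL-4 minus IFN-γ + E. coli. All 18 libraries in 1 fit gave 1 in place of 2 both for the combination against IFN-γ and for IFN-γ against E. coli, and array weights gave 1 for the former. With IL-4, 1 member (Dusp1) in place of 0 was called with array weights and without both shallow libraries by limma (1) and by edgeR (1). With 1 library left out the counts were 1 to 2 with IFN-γ, 1 to 2 for the combination against IFN-γ, 0 to 2 for IFN-γ against E. coli, 1 to 4 in the interaction and 1 to 3 for IL-4 minus IFN-γ + E. coli. The cause was not tested.

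No pairing of the libraries by replicate number was seen, although with 3 libraries per group this check cannot exclude shared animals or batches. Deviations of same-numbered libraries correlated at −0.09 to 0.09 in 18 Type 1 pairs and 0.00053 to 0.021 in 3 IL-4 pairs, and 6 of 12 and 0 of 6 libraries correlated best with a library of their own number. With the replicate block the members called were 1 in place of 2 in the interaction, where Dusp2 had a limma adjusted p of 0.0529, and 2 in place of 3 for IL-4 minus IFN-γ + E. coli, where Dusp16 had 0.0532. The other counts were the same.

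Over all genes, the 79 higher and 37 lower calls with IL-4 became 45 and 29 with the block, 125 and 83 with any value above 0, 389 and 356 with array weights, 127 and 85 in edgeR, 128 and 81 in DESeq2, 116 and 105 with all 18 libraries, and 345 and 311 (limma) or 371 and 313 (edgeR) without the shallow libraries, and 47 to 130 in all with 1 library left out. The interaction's 756 calls became 495 with all 18 libraries and 400 to 1026 with 1 left out. Upper-quartile rescaling moved the median log2 fold change of all genes by −0.14 with both stimuli, −0.10 for both against E. coli and 0.13 for IL-4 minus IFN-γ + E. coli. It turned 1494 higher and 1746 lower calls with both into 1155 and 2200. In the shallow libraries 3 reads are a normalized count of 15.4 and 16.1, which leaves Dusp2, Dusp4 and Dusp10 there at or under that limit.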
